A study of Bos taurus with 2 samples.

Results

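Contractile genes of peritubular myoid cells, the flattened muscle-like cells in the wall of the seminiferous tubule, were followed in RNA sequencing libraries of tubule pieces of calves (Bos taurus) aged 9 months and 3 months. The genes were taken by symbol from a list of 10, of which 9 (ACTA2, MYH11, MYLK, TAGLN, CNN1, TPM2, SMTN, LMOD1 and DES) were found among the 24616 genes of each library. ACTG2 was not matched by symbol and is not analysed here. Each age is a single sample with 1 library, so every value compares these libraries and none has a replicate check or a p-value. Frozen pieces of tubule from removed testes gave the RNA at both ages, and no treatment, breed or genotype is named for either calf. The libraries held 29782234 counts (9 months) and 37600534 counts (3 months), of which 7.39% and 8.68% fell on mitochondrially encoded genes. Pieces of tubule can carry vessels and interstitial tissue with them.

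Myoid cells surround the tubule and contract to move fluid and sperm along it. As in other smooth muscle, actin filaments slide along myosin filaments after calcium and calmodulin switch on a kinase that phosphorylates the myosin light chain, and further proteins line, bundle and anchor the actin. The same genes are expressed by the smooth muscle of blood vessels, so none of them marks a myoid cell alone.

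Levels are given per length as scaled RPKM, meaning counts per kilobase and relative to an effective library size from TMM, a trimmed mean of log ratios. Brackets after a level hold its 95% exact Poisson interval, and brackets after a fold hold its 95% exact binomial interval. Both cover counting error only. A gene was called higher or lower in 9-month tubules when it differed at least 2-fold and its interval left out a ratio of 1.

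Within the set, the filament genes MYH11 and ACTA2 were higher in 9-month tubules, the kinase gene MYLK and the actin-binding gene CNN1 were lower, and the other 5 lay within 2-fold. In such tissue pieces fewer cells of a type and less RNA per cell cannot be told apart. The called members that were higher made up 22.2% of those measured, beside 28.0% of all 18025 measured genes, and the lower ones also 22.2%, beside 22.8%. The members' median log2 ratio was 0.09, against 0.02 over all measured genes. By counts and median the set thus stood close to the background. Log2 ratios of its members ran between -1.20 and 2.29. Of pairs of members 61.1% differed at least 2-fold in their ratio between the libraries, beside 67.7% of all pairs of measured genes. The spread was thus not wider than the background by this measure.

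MYH11 (ENSBTAG00000015988) encodes the smooth muscle myosin heavy chain, the motor of the filament. Its level was 41.8 scaled RPKM [40.9 to 42.7] in 9-month tubules, from 8754 counts, and 8.55 [8.14 to 8.97] in 3-month tubules, from 1652 counts. It was 4.89-fold higher [4.64 to 5.16], the widest ratio of the 9 genes. In the RefSeq annotation of assembly ARS-UCD2.0 it overlaps NDE1, which had 1687 counts in 9-month tubules and 1188 in 3-month tubules. Whether counting used strand is not stated. Genes within 20% of the length of MYH11 had a median log2 ratio of 0.29, above that of all genes.

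ACTA2 (ENSBTAG00000014614), the smooth muscle alpha actin of the thin filament, stood at 119 scaled RPKM [116 to 121] in 9-month tubules and 41.2 [39.6 to 42.7] in 3-month tubules. The underlying counts were 8507 and 2721 in that order, and the gene was 2.88-fold higher [2.76 to 3.01]. It was the most abundant member in 9-month tubules, at the 96.2nd percentile of measured genes, and at the 86.3rd percentile in 3-month tubules. Actin genes are near copies of each other in their coding parts, and reads shared among them may have been split by the counting.

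MYLK (ENSBTAG00000014567) encodes the myosin light chain kinase that starts contraction, together with shorter products of the same gene. It stood at 27.9 scaled RPKM [27.0 to 28.8] in 9-month tubules and at 62.7 [61.3 to 64.2] in 3-month tubules, where it was the most abundant of the 9. The ratio came to 2.25-fold lower [2.16 to 2.34]. CNN1 (ENSBTAG00000011207) encodes calponin, which binds actin and restrains the myosin motor. Its level was 9.37 scaled RPKM [8.55 to 10.3] in 9-month tubules and 21.5 [20.2 to 22.9] in 3-month tubules, a 2.30-fold lower value [2.06 to 2.57].

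TAGLN (ENSBTAG00000007196), encoding transgelin, an actin-bundling relative of calponin, had 2484 counts in 9-month tubules and 1318 in 3-month tubules. This gave 63.9 scaled RPKM [61.4 to 66.5] and 36.7 [34.8 to 38.8], a ratio of 1.74 [1.63 to 1.86] that stayed below the 2-fold line with an interval above 1. SMTN (ENSBTAG00000003100), which encodes the cytoskeletal protein smoothelin of contractile smooth muscle, lay on the other side. It had 12.2 scaled RPKM [11.6 to 12.8] in 9-month tubules and 16.9 [16.1 to 17.6] in 3-month tubules, or 1.38-fold less [1.29 to 1.48].

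For 3 members the intervals of the ratio included 1. TPM2 (ENSBTAG00000011424), a tropomyosin that lies along the actin filament, had 27.7 scaled RPKM in 9-month tubules and 27.6 in 3-month tubules, with a ratio of 1.01 [0.945 to 1.07]. DES (ENSBTAG00000005353), the intermediate filament protein desmin of muscle, had 8.22 and 7.62 scaled RPKM at 9 and 3 months, with a ratio of 1.08 [0.960 to 1.21]. LMOD1 (ENSBTAG00000021576), a leiomodin that starts new actin filaments in smooth muscle, was the least abundant of the 9 in both libraries, at 2.60 scaled RPKM [2.27 to 2.96] and 2.45 [2.12 to 2.81] from 226 and 196 counts. Its ratio of 1.06 [0.875 to 1.29] is the least precise, and differences smaller than these bounds were not detectable at this depth.

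**Figure D1:**
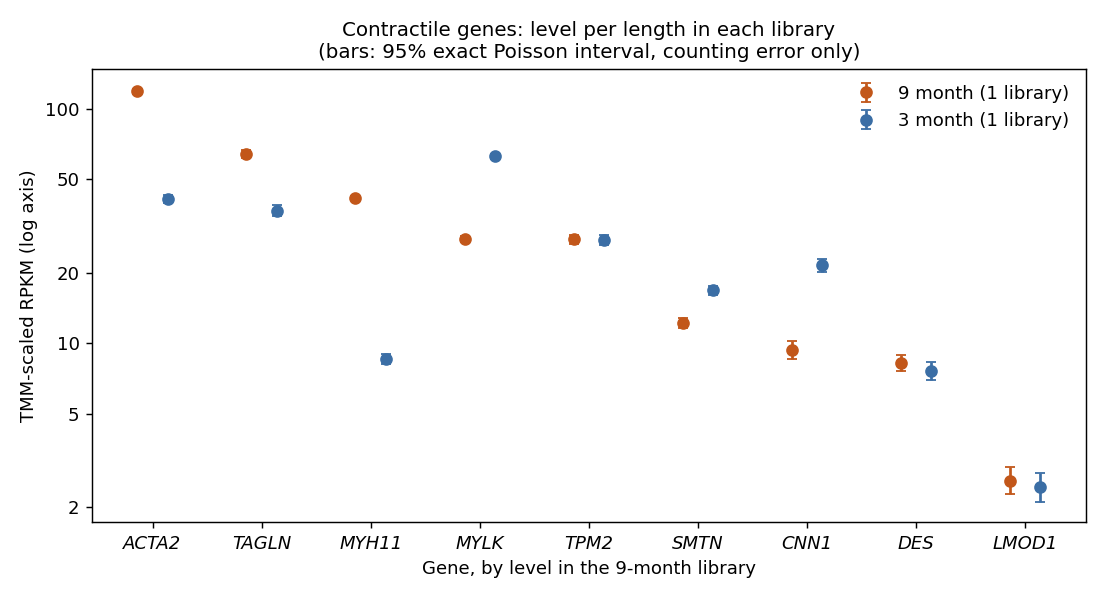
Level of each contractile gene in TMM-scaled RPKM (vertical log axis) in 9-month tubules (orange, left) and 3-month tubules (blue, right), with 95% exact Poisson intervals. ACTA2 reached 119 scaled RPKM at 9 months against 41.2 at 3 months, MYLK and CNN1 sat lower at 9 months, and TPM2, DES and LMOD1 nearly coincided.

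The order of the levels differed between the libraries. In 9-month tubules it ran ACTA2, TAGLN, MYH11, MYLK, TPM2, SMTN, CNN1, DES and LMOD1, where the intervals of MYLK and TPM2 overlapped and so did those of CNN1 and DES. In 3-month tubules it ran MYLK, ACTA2, TAGLN, TPM2, CNN1, SMTN, MYH11, DES and LMOD1, with overlap between MYH11 and DES. At 9 months just ACTA2 and TAGLN stood above MYH11, and at 3 months just DES and LMOD1 stood below it. The highest member exceeded the lowest 45.6-fold in 9-month tubules and 25.6-fold in 3-month tubules.

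Together the 9 genes summed to 812 CPM [803 to 821] in 9-month tubules and 581 CPM [572 to 589] in 3-month tubules, a ratio of 1.40 [1.37 to 1.42]. Without ACTA2 and MYH11 the ratio of the remaining 7 was 0.712 [0.694 to 0.730] under TMM, and without MYLK alone the ratio was 2.01. Both the sum and its remainder depended on the scaling. Plain totals gave a summed ratio of 1.91 and reference genes 2.24, and for the remaining 7 genes plain totals gave 0.974 [0.950 to 0.999] and reference genes 1.14 [1.11 to 1.17]. Of the summed level per length, ACTA2 took 38.0% in 9-month tubules and 18.3% in 3-month tubules. The share of MYLK was 8.93% at 9 months and 27.8% at 3 months, and that of MYH11 was 13.4% and 3.80%. Such shares do not depend on how the libraries are scaled against each other.

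The calls also depended on the threshold. At 4-fold 1 member was higher and 0 lower, beside 17.6% and 8.59% of all genes, and at 1.5-fold 3 were higher and 2 lower, beside 34.5% and 31.8%. They depended on the scaling as well. With plain library totals 3 members were higher and 0 lower, because TAGLN came to 2.38-fold higher while MYLK and CNN1 were 1.64-fold and 1.68-fold lower. The same scaling gave 36.2% of all measured genes higher and 14.7% lower. Scaling to 14 reference genes also gave 3 higher and 0 lower, beside 41.2% and 11.6% of all genes. SMTN turned from lower to 1.16-fold higher with the reference genes. MYH11 was higher under every scaling tried, between 4.55-fold and 7.82-fold, and so was ACTA2, between 2.69-fold and 4.61-fold. Relative to TMM, plain totals shifted every log2 ratio by 0.45, reference genes by 0.68 and upper-quartile scaling by -0.10. Ranks and gaps among the 9 genes are the same under each.

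**Figure D2:**
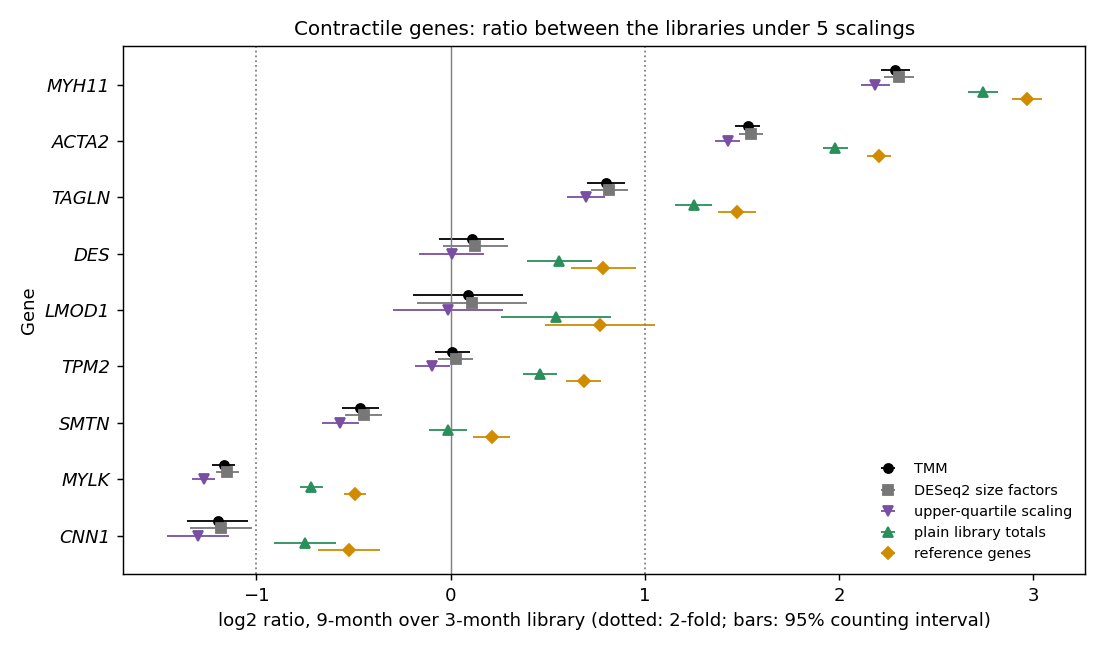
Log2 ratio of the 9-month to 3-month tubules (horizontal axis) for each contractile gene under 5 scalings, with 95% counting intervals and dotted lines at 2-fold. MYH11 and ACTA2 lie beyond 2-fold under each scaling, whereas CNN1 and MYLK do so only with TMM, DESeq2 size factors and upper-quartile scaling.

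Ratios between members within a library need no scaling. Of the 36 pairs among the 9 genes, 22 had a ratio that differed at least 2-fold between the libraries, or 61.1%, beside 67.7% of all pairs of measured genes (with 2 counts added to each count). The widest gap was between MYH11 and CNN1. MYH11 had 4.46 times the level of CNN1 in 9-month tubules and 0.397 times in 3-month tubules, an 11.2-fold difference [9.94 to 12.7]. TAGLN against CNN1 differed 3.99-fold [3.51 to 4.55]. By contrast, the ratio of MYLK to CNN1 was 2.98 in 9-month tubules and 2.91 in 3-month tubules. TPM2, DES and LMOD1 also kept their proportions, with LMOD1 at 0.317 times the level of DES at 9 months and 0.321 times at 3 months.

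Most contractile members belong to families with non-muscle or striated muscle relatives. Of 26 measured paralogs 4 were higher, 10 lower and 12 within 2-fold in 9-month tubules, and their median log2 ratio was -0.67 beside 0.02 for all genes. Plain totals gave 5 higher and 6 lower with a median of -0.22, beside 0.46 for all genes. Reference genes gave 6 higher and 5 lower with a median of 0.002, beside 0.68. The counts thus moved with the scaling, while the median stayed below that of all genes. Of all measured genes 28.0% were higher and 22.8% lower under TMM, 36.2% and 14.7% under plain totals, and 41.2% and 11.6% under reference genes. Among the 4 paralogs higher under TMM was LMOD2, a leiomodin known from striated muscle. It had 720 counts in 9-month tubules and 10 in 3-month tubules, which is 66.4-fold higher [35.9 to 139]. Ratios of a member to its relative within a library carry no scaling error.

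Of the 11 ratios of a member to a relative drawn in the plot of paralog ratios, that of MYH11 to MYH9 differed most. MYH9 and MYH10, the non-muscle heavy chains that act in cell shape and division, stood at 20.8 and 16.0 scaled RPKM in 9-month tubules and at 65.0 and 27.7 in 3-month tubules. MYH11 had 2.01 times the level of MYH9 at 9 months and 0.131 times at 3 months, a 15.3-fold difference [14.4 to 16.3]. Against MYH10 the difference was 8.45-fold [7.89 to 9.04]. MYH11 thereby took 53.0% of the summed level of the 4 heavy chains MYH11, MYH9, MYH10 and MYH14 in 9-month tubules, and 8.42% in 3-month tubules. The annotated lengths of MYH11, MYH9 and MYH10 are alike, at 6012, 6098 and 6277 bases.

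Among the actins, the cytoplasmic genes ACTB and ACTG1 remained far more abundant than ACTA2 in both libraries. ACTB stood at 532 scaled RPKM in 9-month tubules and 681 in 3-month tubules, a ratio of 0.781 under TMM that was 1.07 under plain totals. The ratio of ACTA2 to ACTB was 0.223 at 9 months and 0.0605 at 3 months, a 3.69-fold difference [3.53 to 3.87]. ACTA2 took 10.4% of the summed actin level in 9-month tubules and 3.07% in 3-month tubules. The striated alpha actins ACTA1 and ACTC1 stood at 7.83 and 3.81 scaled RPKM at 9 months and at 11.5 and 2.27 at 3 months.

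TPM2 itself hardly differed, but the other tropomyosins did. TPM1, TPM3 and TPM4 were 3.93-fold, 2.32-fold and 5.82-fold lower in 9-month tubules. The ratio of TPM2 to TPM4 was 0.947 at 9 months and 0.162 at 3 months, a 5.85-fold difference [5.42 to 6.32]. Against TPM1 and TPM3 it was 3.95-fold [3.67 to 4.25] and 2.33-fold [2.17 to 2.50] higher. TPM1 is annotated with only 834 bases, so its level per length, and the share of TPM2 in the family, rest on that length.

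DES lay within 2-fold, while VIM, encoding vimentin, the intermediate filament of mesenchymal and many other cells, was 4.31-fold lower [4.21 to 4.41]. VIM stood at 138 scaled RPKM in 9-month tubules and 593 in 3-month tubules. The ratio of DES to VIM was 0.0597 and 0.0129 at 9 and 3 months, a 4.65-fold difference [4.13 to 5.23].

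Of the calponins, CNN1 and CNN3 were lower. CNN2 lay within 2-fold under TMM, at 18.5 scaled RPKM in 9-month tubules and 14.3 in 3-month tubules, and was 2.07-fold higher with reference genes. CNN3, the calponin of non-muscle tissue, had 789 counts in 9-month tubules and 10704 in 3-month tubules and was 14.7-fold lower [13.7 to 15.8]. CNN1, though lower itself, was therefore 6.40-fold higher relative to CNN3 [5.60 to 7.31]. Relative to CNN2 it was 2.97-fold lower [2.50 to 3.53]. The transgelins differed less, and the ratio of TAGLN to the non-muscle TAGLN2 was 1.28 at 9 months and 0.709 at 3 months, a 1.80-fold difference [1.65 to 1.97]. LMOD1 relative to the tropomodulin TMOD3, which caps actin filaments, had a ratio of ratios of 0.949 [0.694 to 1.30]. TMOD3 is annotated with 453 bases only.

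**Figure D3:**
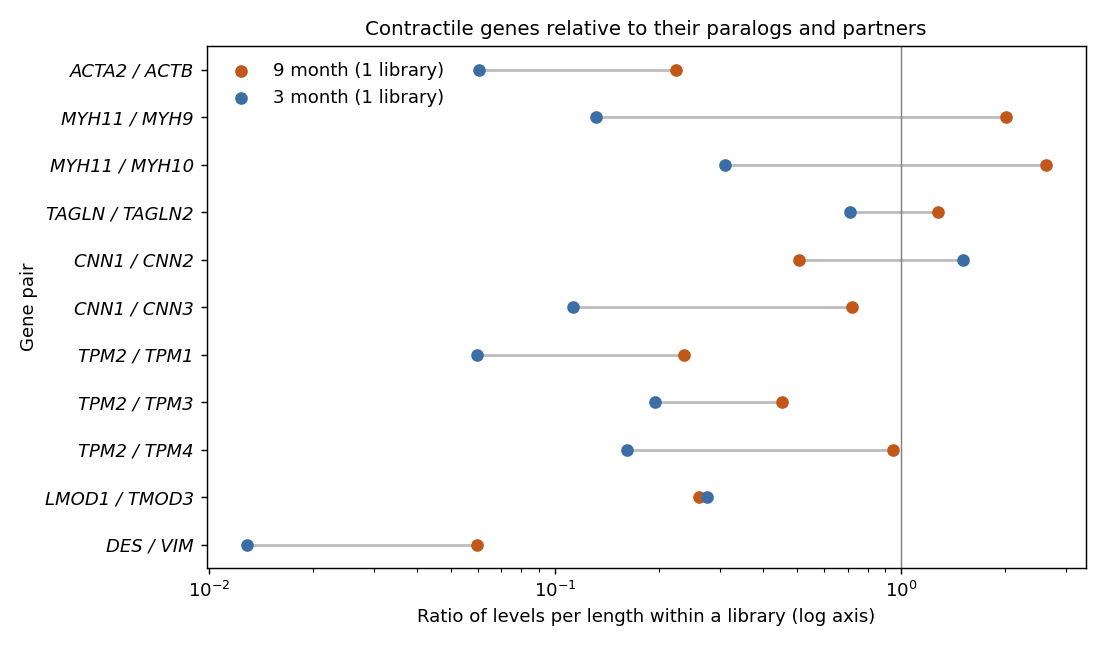
Level per length of each contractile gene relative to a paralog or related gene within the same library (horizontal log axis), in 9-month tubules (orange) and 3-month tubules (blue). The ratio of MYH11 to MYH9 was 2.01 at 9 months and 0.131 at 3 months, and CNN1 to CNN2 was the clearest shift the other way.

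**Figure D4:**
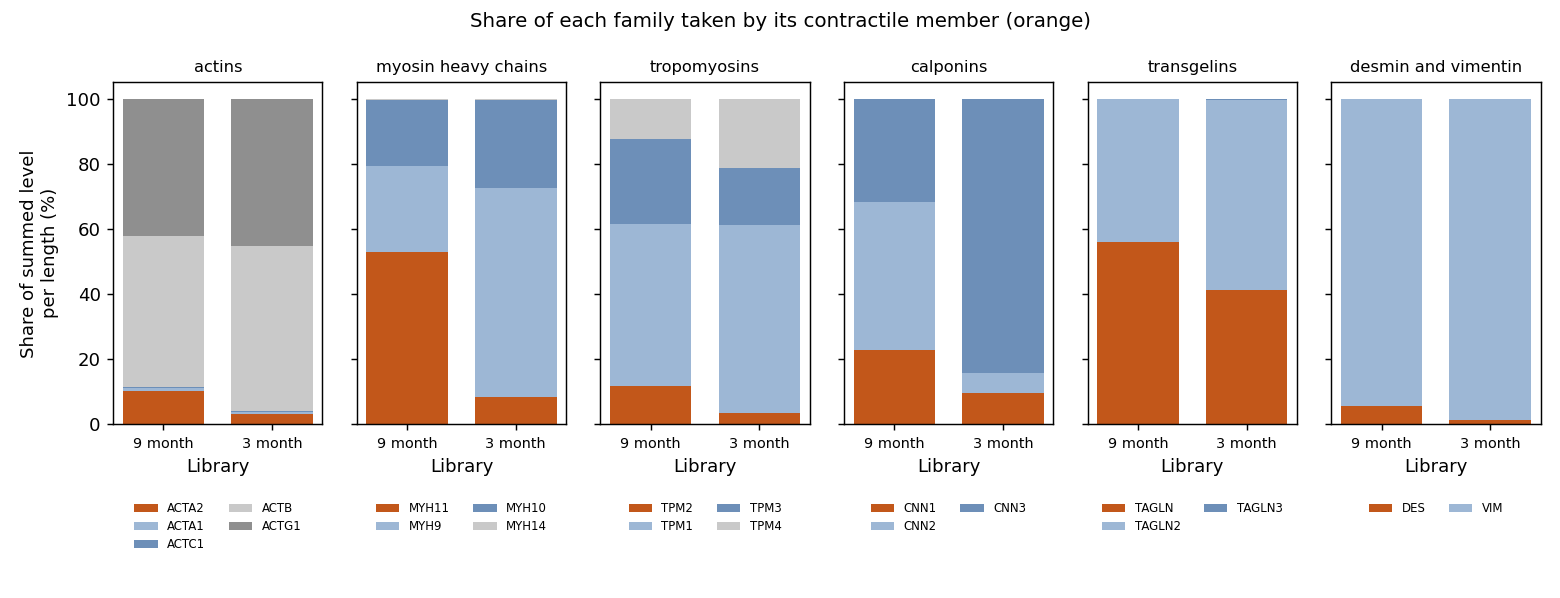
Share of each family's summed level per length (vertical axis, percent) taken by each of its genes, in 9-month tubules (left bar) and 3-month tubules (right bar), with the contractile member in orange. MYH11 took 53.0% of the myosin heavy chains at 9 months and 8.42% at 3 months.

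Of 28 other structural genes of smooth muscle, 2 were higher in 9-month tubules and 13 lower, and their median log2 ratio was -0.87. Plain totals gave 2 higher and 8 lower (median -0.42), and reference genes 3 higher and 8 lower. Over all measured genes 28.0% were higher and 22.8% lower under TMM. The shares were 36.2% and 14.7% under plain totals, and 41.2% and 11.6% under reference genes. All-gene medians were 0.02, 0.46 and 0.68 in that order. These values are the background for each list below as well. CALD1, encoding the actin- and myosin-binding protein caldesmon, was 7.24-fold lower [6.83 to 7.68]. MYL6, an essential myosin light chain, was 3.97-fold lower [3.86 to 4.09]. Its level was 249 scaled RPKM in 9-month tubules and 988 in 3-month tubules, far above that of MYH11 in both. Which cells gave the counts of these structural genes was not tested. MYL9, the regulatory light chain that MYLK phosphorylates, has 2 gene entries, of which the more abundant was 3.73-fold lower [3.60 to 3.87] and the other 1.31-fold lower [1.25 to 1.38]. With plain totals the ratio of that other entry was 1.04. The 2 higher genes were LPP, a protein of focal adhesions, at 10.6-fold [8.76 to 13.0], and KCNMB1. KCNMB1 encodes the smooth muscle subunit of the calcium-activated potassium channel that opposes contraction, and was 4.84-fold higher [3.73 to 6.36].

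Among genes that control light chain phosphorylation and calcium, 2 of 18 were higher in 9-month tubules and 3 lower (median log2 ratio -0.22). Plain totals gave 4 higher and 0 lower (median 0.23), and reference genes 5 higher and 0 lower. KCNMA1, the pore of the same potassium channel, had 303 counts in 9-month tubules and 17 in 3-month tubules and was 16.4-fold higher [10.1 to 28.6]. ATP2A2, the pump that returns calcium to its store, was 2.16-fold higher [2.08 to 2.24]. PPP1CB, the catalytic subunit of the phosphatase that opposes MYLK, was 2.06-fold lower [2.01 to 2.11]. PPP1R12A, its targeting subunit, lay within 2-fold at 1.17 [1.11 to 1.24]. The ratio of MYLK to PPP1R12A was 0.960 in 9-month tubules and 2.53 in 3-month tubules, a 2.63-fold lower value [2.46 to 2.82].

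Serum response factor (SRF) with its cofactors switches on many contractile genes. Of 11 measured genes of this group 2 were higher and 4 lower, and the group's median log2 ratio of -0.12 was 0.33 with plain totals. KLF4, a factor that represses smooth muscle genes in cultured cells, stood at 70.3 CPM in 9-month tubules and 10.6 CPM in 3-month tubules, 6.63-fold higher [5.91 to 7.44]. GATA6, ELK1 and FHL2 were 5.13-fold, 3.57-fold and 2.95-fold lower. SRF itself and its muscle cofactor MYOCD, singled out after their values were seen, had 27.3 and 3.47 CPM in 9-month tubules and 29.8 and 1.18 CPM in 3-month tubules. The ratio of SRF was 0.917 with an interval that included 1 (1.25 with plain totals), and MYOCD was 2.94-fold higher [2.03 to 4.35] from 121 and 38 counts.

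Of 13 measured receptors and ligands known to act on tubule contraction, 2 were higher and 6 lower (median log2 ratio -0.10). Plain totals gave 4 higher and 5 lower (median 0.34), and reference genes 4 and 4. The endothelin receptor EDNRA, through which endothelin contracts smooth muscle, stood at 32.1 CPM in 9-month tubules and 98.2 CPM in 3-month tubules, 3.06-fold lower [2.86 to 3.28]. EDNRB, another endothelin receptor, AGTR1, the receptor of angiotensin II, and ADM, the vasodilator peptide adrenomedullin, were 8.07-fold [5.74 to 11.6], 7.50-fold [5.60 to 10.2] and 6.20-fold [5.18 to 7.46] lower. OXTR, the oxytocin receptor, chosen after its values were seen, had 166 counts at 9 months and 4 at 3 months, or 38.3-fold more [14.7 to 142].

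Of 14 genes of the hedgehog, PDGF and other signals that act on peritubular cells, 1 was higher and 6 were lower (median log2 ratio -0.78). Plain totals gave 1 higher and 4 lower (median -0.32), and reference genes 3 and 3. PDGFA, a growth factor of mesenchymal cells, was 24.6-fold lower [20.9 to 29.3] in 9-month tubules, and the receptor PDGFRB was 4.85-fold lower [4.55 to 5.16].

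Markers of other cells moved between the libraries as well, and their part in the results for the contractile genes was not tested. Of 11 measured markers of pericytes and vascular smooth muscle 0 were higher and 7 lower (median log2 ratio -1.48). Their summed level was 134 CPM in 9-month tubules and 479 CPM in 3-month tubules. RGS5, the most abundant of them in 3-month tubules, was 6.33-fold lower [5.97 to 6.71]. The summed markers of this list were lower in the library in which MYH11 and ACTA2 were higher. Whether vessels contributed to either gene was not tested. Of 10 endothelial markers 8 were lower and 2 higher, with sums of 160 CPM at 9 months and 217 CPM at 3 months. The higher ones were VWF at 5.91-fold [5.27 to 6.64] and FLT1 at 3.53-fold [3.08 to 4.04]. Plain totals gave 1 pericyte marker higher and 6 lower, and 2 endothelial markers higher and 4 lower. Reference genes gave 2 and 4 for pericytes, and 2 and 3 for endothelial cells. The ratio of the endothelial sums was 0.740 under TMM, 1.01 under plain totals and 1.18 under reference genes, so its direction turned, and that of the pericyte sums was 0.280, 0.383 and 0.447.

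Fibroblast markers summed to 1210 CPM in 9-month tubules and 4106 CPM in 3-month tubules, with 6 of 11 lower and 1 higher (4 and 1 with plain totals). For Sertoli cells the sums were 2371 and 9518 CPM at 9 and 3 months. Of their 14 markers 9 were lower and 2 higher (6 and 3 with reference genes). Leydig cell markers summed to 2794 and 17913 CPM in that order, with 7 of 8 lower and 1 higher (6 and 1 with reference genes). All 13 spermatocyte and all 13 spermatid markers were higher, with sums of 1326 and 3214 CPM in 9-month tubules and 41.7 and 4.85 CPM in 3-month tubules. The spermatid marker ODF1 had 0 counts at 3 months, which is not proof of absence. It is placed at the floor of 3 counts, or 0.0933 CPM. Every other matched gene of these marker lists had at least 1 count in both libraries. The median log2 ratio of the 9 contractile genes was 0.09 under TMM. Medians were lower for fibroblast (-1.26), Sertoli (-1.38), Leydig (-3.42), pericyte (-1.48) and endothelial (-1.24) markers. Among the companion lists the closest medians were those of receptors and ligands (-0.10), the SRF group (-0.12), light chain control (-0.22) and striated muscle genes (-0.25). By sums, the members without ACTA2 and MYH11 had a ratio of 0.712, near the 0.740 of the endothelial markers.

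**Figure D5:**
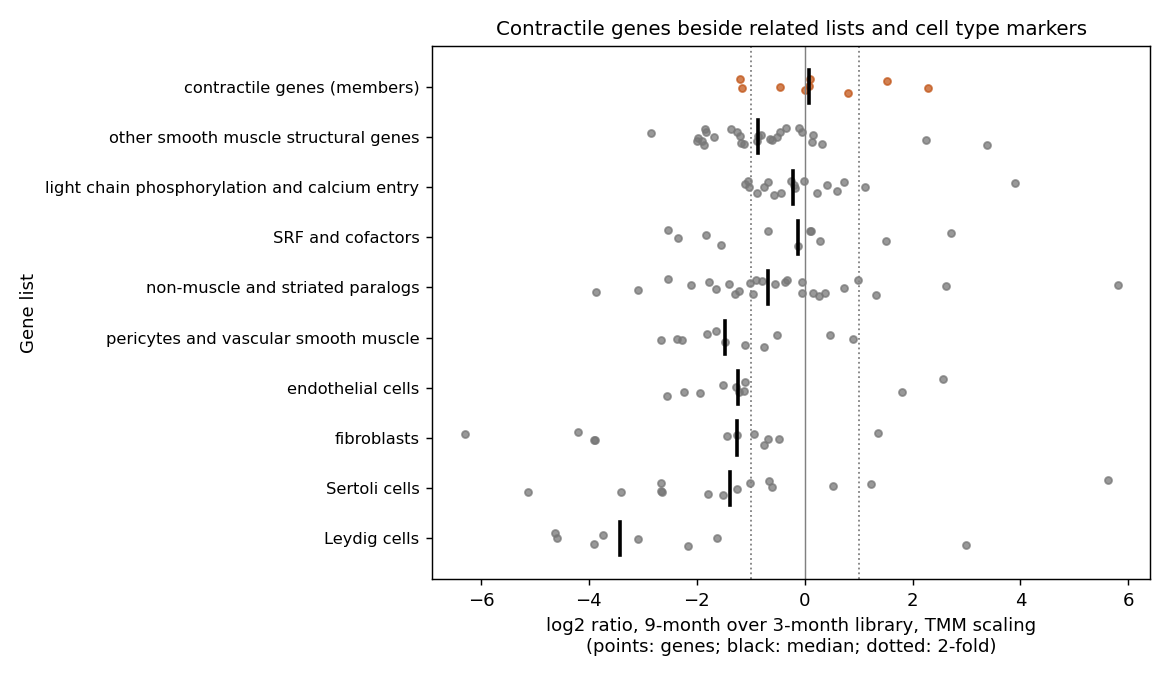
Log2 ratio of the 9-month to 3-month tubules (horizontal axis, TMM scaling) for each gene of the contractile set (orange) and of related lists and somatic marker lists (grey), with the list median as a black line and 2-fold as dotted lines. The contractile median lies at 0.09, and pericyte, endothelial, fibroblast, Sertoli and Leydig medians lie between -3.42 and -1.24.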

How the data were processed

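The submitters' processing notes name build UMD3.1, the trimmer Trimmomatic 0.33 and the aligner STAR 2.4.0. Counting program, annotation release, strand setting and the treatment of reads with several alignments: not given in the sources used here. The deposited tables have no header. They hold raw counts per gene, the gene length in bases, and RPKM, which the authors based on plain library totals, since it equals that quotient within 0.000496%. The number of columns of other samples left unused was 0.

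Counts were scaled by TMM in edgeR 4.0.16 (R 4.3.3) over the 18025 genes with at least 10 counts in both libraries together, with factors of 1.17 (9 months) and 0.855 (3 months). Log2 ratios carry a prior count of 2. The floor of 3 counts is 0.0861 CPM at 9 months and 0.0933 CPM at 3 months. Folds have conditional binomial (Clopper-Pearson) intervals and ratios of ratios exact conditional intervals. PCR reads need not be independent molecules, so the intervals may be too narrow. The calling step was tested on simulated counts in which a small set of genes had known folds and the rest were equal. Far more genes differed between these libraries, so the test checks neither the scaling here nor the spread between animals. Other software was Python 3.11.15, scipy 1.17.1, pandas 2.3.3, numpy 2.4.6 and matplotlib 3.10.9, with DESeq2 1.42.0 for alternative size factors.

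Members, pairs and the 15 companion lists were chosen with earlier results of these data known. Named genes are the members, the genes of the pairs, and from each list up to 4 with the largest absolute log2 ratio where either library reaches 5 CPM. Others are relatives in the gene families, are marked in the text, or are the genes of a small count. For the 5 listed symbols with more than 1 gene entry, the entry with more counts was used. RefSeq names and overlaps come from assembly ARS-UCD2.0, whose coordinates are not used. The higher gene among the signals to peritubular cells is not reported here by name.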

Additional observations from a re-analysis of the deposited data

How the results depend on the processing

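Under plain totals 0 members were lower and the median log2 ratio of the 9 members was 0.54, beside 0.46 for all measured genes. Under reference genes 0 were lower and the median was 0.76 beside 0.68, against 0.09 beside 0.02 with TMM. These alternatives shift every gene alike. At a 4-fold threshold 1 member (MYH11) was higher and 0 were lower, beside 17.6% and 8.59% of all measured genes. Of other genes named as lower, PPP1CB and TPM3 came within 2-fold under plain totals and reference genes, and FHL2, EDNRA, MYH9 and TNNT3 under reference genes. The counts of 2 higher and 2 lower members held with DESeq2 size factors, with upper-quartile scaling, with TMM without mitochondrially encoded genes, and with members centred on genes within 20% of their length. This last alternative was chosen after seeing the data, and gave a median of 0.05. It gave 1.996 for MYH11, against 2.29 before centring, 1.54 for ACTA2 and -1.30 for MYLK. The centred value of MYH11 lies just under the 4-fold line. With upper-quartile scaling the median was -0.01. Prior counts of 0.5 and 10 left it at 0.09. No called member changed direction under any of these. No paired analysis was possible because there is 1 library per age, and for the same reason no replicate could be left out. Depth limits LMOD1 most, with 226 and 196 counts at 9 and 3 months.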

Other observations

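For genes of striated muscle, which share DES with smooth muscle, the counts of calls moved with the scaling. Of 14 measured 5 were higher in 9-month tubules and 5 lower (median log2 ratio -0.25, beside 0.02 for all genes). Plain totals gave 6 higher and 2 lower (median 0.16, beside 0.46). Reference genes gave 6 higher and 0 lower (median 0.36, beside 0.68). The list median lay below that of all genes under each. Their summed level was 1.47-fold higher at 9 months under TMM, 2.02-fold under plain totals and 2.36-fold under reference genes. TTN and NEB, giant proteins of the sarcomere, stood at 48.7 and 16.9 CPM in 9-month tubules and at 11.4 and 3.17 CPM in 3-month tubules, 4.27-fold [3.81 to 4.80] and 5.33-fold [4.31 to 6.64] higher. The troponin gene TNNT3 was 3.03-fold lower [2.33 to 3.97]. TMOD2, a tropomodulin known from neurons, was 6.46-fold higher [4.42 to 9.74], and the smoothelin-like gene SMTNL1 was 8.95-fold lower [6.15 to 13.4].

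A second gene entry under the symbol ACTB (ENSBTAG00000015441) had 608 counts in 9-month tubules and 98 in 3-month tubules and was 5.72-fold higher [4.62 to 7.16], while the main entry was 1.28-fold lower [1.26 to 1.30] under TMM and had a ratio of 1.07 under plain totals.

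Ratios between the libraries varied with annotated gene length. The 3612 shortest measured genes, up to 963 bases, had a median log2 ratio of -0.26, and the 3605 longest, from 3014 bases, of 0.19. Genes within 20% of the length of MYH11 had a median of 0.29, and those within 20% of the length of MYLK, which was lower, had 0.13.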
